A study of Mus musculus with 9 samples.

Results

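Guanylate-binding proteins (GBPs) and immunity-related GTPases (IRGs) are 2 families of GTP-hydrolyzing enzymes that interferons switch on in mouse cells. They gather on the vacuoles of intracellular bacteria and parasites and on bacteria that have reached the cytosol, break these membranes open, and help inflammasomes sense what is released. The levels of 9 such genes were taken from Ly6Chi CD115+ cells of mouse bone marrow (BM), namely *Gbp2*, *Gbp3*, *Gbp6*, *Gbp7*, *Gbp8*, *Irgm1*, *Irgm2*, *Igtp*, and *Iigp1*. A gene was measured by a probe set that the array annotation gives to that gene alone, and where there were several the one of highest mean was used. Of the 9 genes, 5 had such a probe set (*Gbp3*, *Gbp7*, *Gbp8*, *Irgm1*, and *Iigp1*), out of 19937 genes with one on the array. The other 4 lay only on shared probe sets, 1 naming *Gbp2* and *Gbp2b*, 1 naming *Irgm2* and *Igtp*, and 1 naming 6 GBP genes of chromosome 5 with *Gbp6* among them, and a shared probe set cannot say which of its genes was expressed.

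The cells were R3 (Flt3+CD11c+), which are pre-dendritic cells (pre-DCs), R2 (Flt3+CD11c-) monocytes, and R1 (Flt3-CD11c-) monocytes, sorted by flow cytometry from C57Bl/6 mice culled at 8 weeks of age that had received no treatment. Whether 1 mouse or a pool gave each sample was not stated in the sources used here. Each population was hybridized to 3 arrays, and replicate numbers 1 to 3 mark arrays of all 3 populations that carry the same date in their labels. Values are log2 of the deposited probe set intensity, errors are SD with n = 3, and differences are the first population minus the second from 1 limma fit over the 9 arrays, with Benjamini-Hochberg adjustment over all 19937 genes and a gene called at an adjusted p under 0.05. Nothing in the sources says that replicates came from separate mice, so a p-value here reflects only array-to-array spread, part of which may be technical.

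The labels were checked on defining genes. All 6 pre-DC genes tested, from *Flt3* and *Itgax* (which encodes CD11c) to *Zbtb46*, passed the test against R2 and against R1, with higher values in R3. Of 6 monocyte genes, 4 were called lower in R3 than in R2 and 5 lower in R3 than in R1. Genes of B, T, natural killer, and erythroid cells were called in no comparison. Among 6 neutrophil genes none was called, but their mean ranged from 4.98 to 7.35 over the R3 arrays, 5.10 to 5.81 over R2, and 4.64 to 5.47 over R1. The high end was R3 replicate 1, in which the granule genes *Ngp* (10.73), *Camp* (10.79), and *Ltf* (8.92) were highest. The neutrophil genes *Ly6g* (4.87), *Retnlg* (4.60), and *Cxcr2* (4.20) measured much less in that array. Even so, *Ly6g* there was above R3 replicates 2 and 3 (4.54 and 4.32) and every R2 array (at most 4.40), though not above R1 replicate 3 (5.03). *Retnlg* was highest in R3 replicate 3 (5.07). R3 replicate 3 was also high for the granule genes (9.03, 8.77, and 7.03), above every R2 array (at most 7.48, 8.58, and 5.47) and every R1 array (at most 6.50, 7.52, and 5.60), and only R3 replicate 2 (6.27, 6.16, and 4.93) was not. Results are therefore also given without R3 replicate 1 and, as an alternative chosen after the data were seen, without both R3 replicates 1 and 3, where the lone R3 array is assumed to vary like the arrays of the other populations. Of 5 basophil and mast cell genes, 1 was called, *Mcpt8*, lower in R3 than in R2 (-1.57), with list means of 5.03 to 5.52 in R3, 5.48 to 5.57 in R2, and 5.14 to 5.20 in R1. Of 6 resident macrophage genes, 1 was called, *Siglec1*, lower in R3 than in R1 (-1.0), with list means of 5.07 to 5.21 in R3, 5.14 to 5.17 in R2, and 5.12 to 5.36 in R1. The part of such cells in the results was not tested.

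Both families are induced through 2 kinds of short DNA element. The interferon-stimulated response element (ISRE) binds factors of the IRF family, and the gamma-activated site (GAS) answers to interferon-gamma once it has met its receptor. RefSeq promoters (GRCm38.p6) were matched for 6 of the 9 genes, *Gbp2*, *Gbp3*, *Gbp7*, *Irgm1*, *Irgm2*, and *Igtp*, and the 250 bases before each transcript start were searched on both strands for GAAANNGAAA, an ISRE-type core. All 6 held it, against 3.46% of 27025 genes in the same table. The 100 bases before each annotated gene are shown 5′ to 3′ along the gene, with every match in capitals, because they let *Gbp3* and *Gbp7*, which were called, and the genes of 2 called shared probe sets be read beside *Irgm1*, for which no difference was called.
Gbp2, chr3:142620563-142620662, plus strand: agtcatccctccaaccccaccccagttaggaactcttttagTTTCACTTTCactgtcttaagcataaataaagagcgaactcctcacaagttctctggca
Gbp3, chr3:142559916-142560015, plus strand: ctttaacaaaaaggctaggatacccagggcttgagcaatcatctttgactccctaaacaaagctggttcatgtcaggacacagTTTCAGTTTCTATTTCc
Gbp7, chr3:142530236-142530335, plus strand: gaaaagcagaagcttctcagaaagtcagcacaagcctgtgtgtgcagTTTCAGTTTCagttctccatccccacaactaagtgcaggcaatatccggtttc
Irgm1, chr11:48871421-48871520, minus strand: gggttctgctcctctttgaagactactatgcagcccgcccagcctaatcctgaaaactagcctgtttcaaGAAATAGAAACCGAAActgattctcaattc
Irgm2, chr11:58214877-58214976, plus strand: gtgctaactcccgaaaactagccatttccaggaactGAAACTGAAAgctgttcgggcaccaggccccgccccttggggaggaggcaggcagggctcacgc
Igtp, chr11:58199456-58199555, plus strand: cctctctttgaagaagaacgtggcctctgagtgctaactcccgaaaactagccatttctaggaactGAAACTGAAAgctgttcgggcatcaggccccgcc

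The core lay within 64 bases of the transcript start in each of the 6 genes. In the 3 GBP genes it read as TTTCNNTTTC, the other strand of the same core, and in the 3 IRG genes as GAAANNGAAA. Read on the strand that starts with GAAA, the 10 bases were GAAACTGAAA in *Gbp3*, *Gbp7*, *Irgm2*, and *Igtp*, a word found in 0.233% of genes of the table, and GAAAGTGAAA in *Gbp2*. *Gbp3* and *Irgm1* each had 2 overlapping matches, and GAAATAGAAA was 1 of them in both. *Gbp3* has a transcript start further downstream too, with no match in the 250 bases before it, and the first start lies 28 bases inside the annotated gene, so the run shown ends 28 bases before that start. The GAS-type core TTCNNNGAA, which reads the same on both strands, was found in 8.13% of genes of the table. It occurred in *Gbp7* at 2 places and once each in *Irgm2* and *Igtp*, just before the ISRE-type core, and had no match in the windows of *Gbp2*, *Gbp3*, and *Irgm1*. The promoters of *Irgm2* and *Igtp*, neighbors on chromosome 11, matched at 68 of 70 bases around the core. Over a longer stretch, laid on each other at the core without gaps, they matched at only 134 of 220 bases. A match is a description of letters and no evidence that a factor binds there. No promoter was matched for *Gbp6* and *Gbp8*. No promoter of *Iigp1*, which lies on chromosome 18, was searched, and this does not show that the table lacks one. Whether these genes hold either core was therefore not tested.

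**Figure D1:**
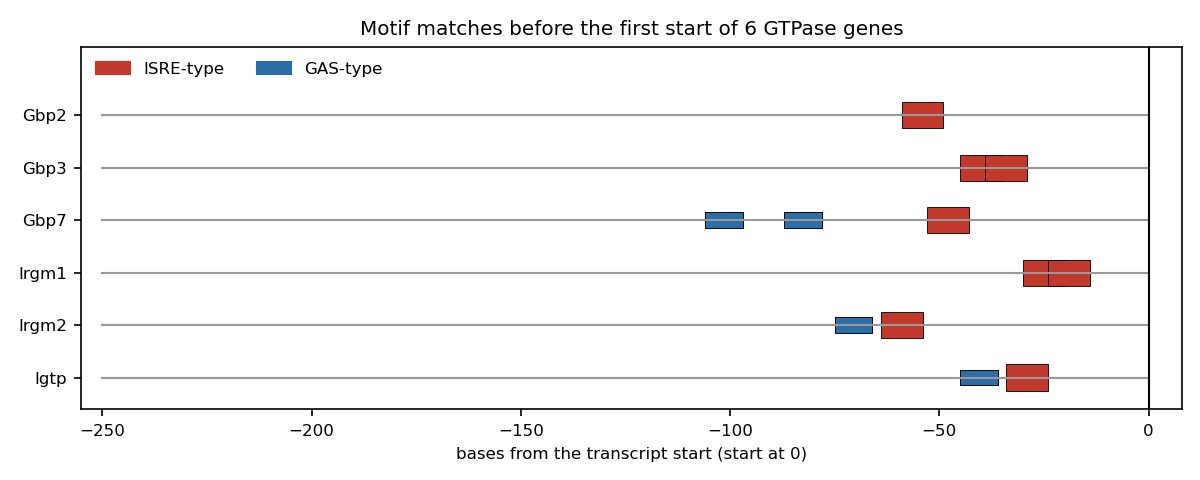
Matches to the ISRE-type core (red) and the GAS-type core (blue) in the 250 bases before the first transcript start of 6 GTPase genes, with bases from the start on the x axis and 1 gene per row. The ISRE-type core sits within 64 bases of the start in every row, and the GAS-type core appears in *Gbp7*, *Irgm2*, and *Igtp*.

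Among GBPs with a probe set of their own, the values of *Gbp7* differed most between the populations. Gbp7 has been linked in mouse macrophages to assembly of the phagocyte oxidase and to the autophagy machinery, and its gene lies on chromosome 3 (142530336 to 142550151). *Gbp7* measured 5.12, 5.96, and 5.65 in replicates 1 to 3 of R3, 7.88, 7.77, and 7.84 in R2, and 7.56, 7.80, and 8.10 in R1. Every R3 array lay below every monocyte array by more than 1.5 log2 units, and the R2 arrays fell inside the range of R1. The mean was 5.58 ± 0.42 in R3, 7.83 ± 0.05 in R2, and 7.82 ± 0.27 in R1. *Gbp7* was thus 4.77-fold lower in R3 than in R2 (-2.25, SE 0.20, limma adjusted p = 0.000104) and 4.74-fold lower in R3 than in R1 (-2.24, SE 0.20, adjusted p = 8.56e-05). These contrasts share the R3 arrays. R2 and R1 did not differ by the test (0.01, 95% interval -0.44 to 0.46, adjusted p = 0.993). In bulk RNA, fewer expressing cells and less RNA per cell cannot be told apart. The 2 R3 arrays lowest for *Gbp7*, replicates 1 and 3, were those high for neutrophil granule genes. Without replicate 1 the differences were -2.03 (adjusted p = 0.000169) from R2 and -2.02 (adjusted p = 0.000129) from R1, and with replicate 2 as the only R3 array they were -1.87 (adjusted p = 0.0032) and -1.86 (adjusted p = 0.00251).

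*Gbp3*, the neighbor of *Gbp7* on chromosome 3 (142560016 to 142573213), encodes another GBP of the same cluster. *Gbp3* measured 6.83, 7.14, and 6.93 in R3, 8.46, 8.37, and 8.26 in R2, and 8.27, 8.28, and 8.76 in R1. The R3 arrays again stood apart below all 6 monocyte arrays, among which R2 and R1 overlapped. The means were 6.96 ± 0.16 in R3, 8.36 ± 0.10 in R2, and 8.44 ± 0.28 in R1. *Gbp3* was 2.63-fold lower in R3 than in R2 (-1.40, SE 0.14, adjusted p = 0.000222) and 2.78-fold lower in R3 than in R1 (-1.48, SE 0.14, adjusted p = 0.000127). Between R2 and R1 the difference was -0.08 (95% interval -0.40 to 0.24, adjusted p = 0.904). Date by date, R3 minus R2 was -1.63, -1.23, and -1.33 and R3 minus R1 was -1.44, -1.15, and -1.84, so the direction was the same on each of the 3 dates. Without R3 replicate 1 the differences were -1.33 from R2 and -1.41 from R1, and both remained called. Without R3 replicates 1 and 3, which were also the lowest for *Gbp3*, they were -1.22 (adjusted p = 0.0218) and -1.30 (adjusted p = 0.0134).

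The probe set shared by *Gbp2* and *Gbp2b* behaved likewise. Gbp2 carries a lipid anchor and is recruited to the *Toxoplasma* vacuole, and *Gbp2b*, often called *Gbp1* in mice, is its close relative. The shared probe set measured 5.38, 5.67, and 5.98 in R3, 7.20, 7.20, and 7.31 in R2, and 7.78, 8.07, and 7.68 in R1. The 3 populations did not overlap, with R3 lowest and R1 highest. Shared probe sets were tested in a second limma fit of 21258 genes and several-gene probe sets, in which 8.9% were called for R3 against R2, 12.8% for R3 against R1, and 0.249% for R2 against R1. In it the *Gbp2* and *Gbp2b* probe set was 2.94-fold lower in R3 than in R2 (-1.56, SE 0.15, adjusted p = 0.000228) and 4.49-fold lower in R3 than in R1 (-2.17, SE 0.15, adjusted p = 2.36e-05). R2 against R1 gave -0.61 (95% interval -0.95 to -0.26, adjusted p = 0.169), which did not pass. Without R3 replicate 1, R3 differed by -1.41 from R2 and -2.02 from R1. With R3 replicates 1 and 3 left out, it differed by -1.57 and -2.18. *Gbp2b* also has a probe set of its own, and there R3 minus R2 was 0.00 and R3 minus R1 0.05, with neither called. That probe set was dim, at 4.58 to 4.75 over the 9 arrays, where the median over all genes was 6.21.

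The remaining GBP probe sets were dim. *Gbp8* (chromosome 5, 105012513 to 105053609) measured 5.13, 5.08, and 5.29 in R3, 4.66, 5.10, and 5.13 in R2, and 5.59, 4.76, and 5.19 in R1. The populations overlapped, and R3 against R2 (0.20, 95% interval -0.25 to 0.66), R3 against R1 (-0.01, -0.46 to 0.44), and R2 against R1 (-0.21, -0.67 to 0.24) were not called. The probe set shared by *Gbp4*, *Gbp6*, *Gbp8*, *Gbp9*, *Gbp10*, and *Gbp11*, the only one for *Gbp6*, measured 4.51, 4.40, and 4.52 in R3, 4.44, 4.67, and 4.88 in R2, and 5.05, 4.73, and 4.74 in R1. Its R3 arrays lay below its R1 arrays, but the difference of -0.36 (95% interval -0.65 to -0.08) missed the threshold (limma adjusted p = 0.106). R3 against R2 was -0.19 (adjusted p = 0.515) and R2 against R1 was -0.17 (adjusted p = 0.717). Both probe sets, and that of *Iigp1*, had means under that median, where a low level and no expression may be hard to distinguish.

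**Figure D2:**
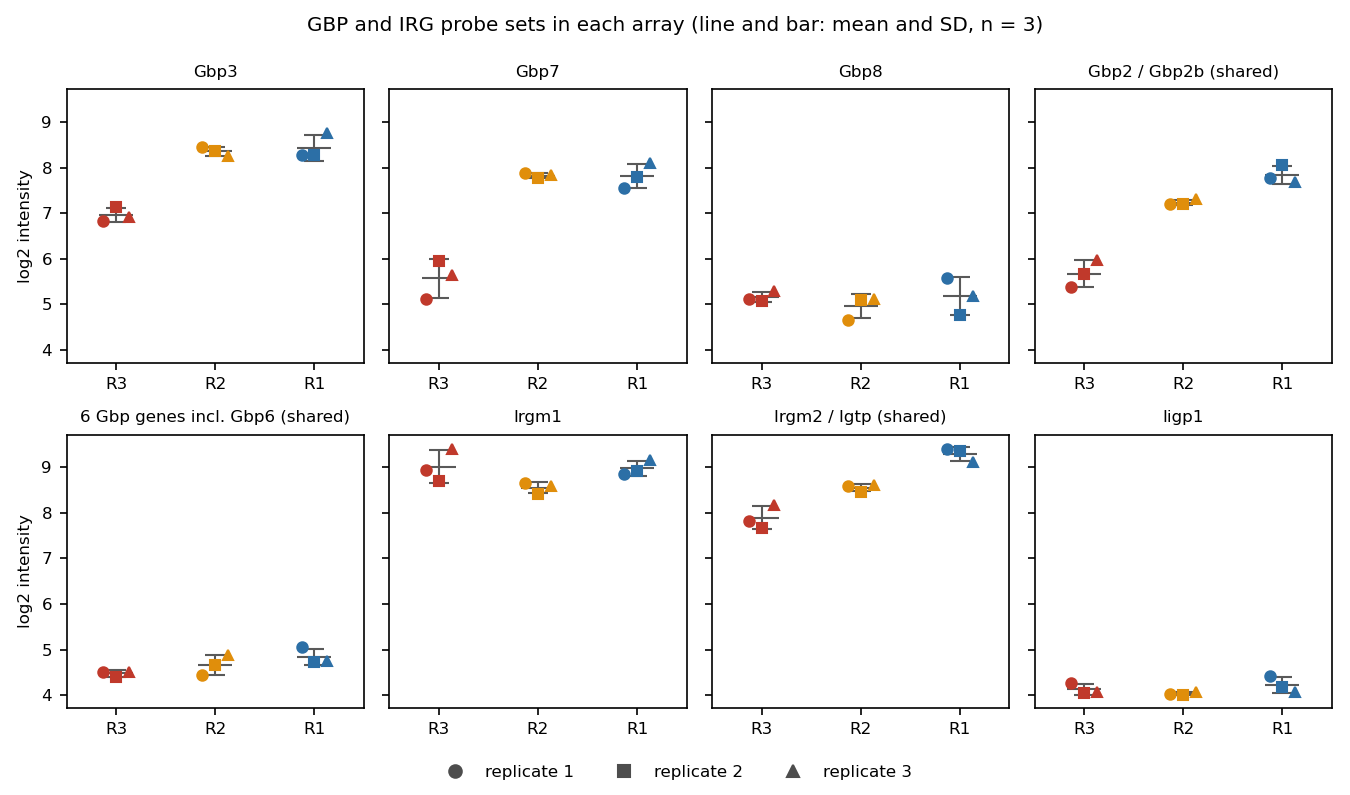
Log2 intensity (y axis) of the 8 probe sets in every array, with R3, R2, and R1 along the x axis, 1 marker shape per replicate and lines for mean and SD (n = 3). R3 arrays lie below both monocyte populations for *Gbp3*, *Gbp7*, and the shared *Gbp2* and *Irgm2* probe sets, whereas *Irgm1* in R3 spans 8.69 to 9.41 and overlaps R1.

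The IRG family has regulators, which sit on the cell's own membranes and hold the effectors in check, and effectors, which load onto pathogen vacuoles. *Irgm1* (chromosome 11, 48865245 to 48871420), a regulator, was not called in any comparison. It measured 8.95, 8.69, and 9.41 in R3, 8.65, 8.42, and 8.60 in R2, and 8.86, 8.91, and 9.17 in R1. R2 had the lowest arrays without overlap with either R3 or R1, and R3 overlapped R1. The means were 9.01 ± 0.37 in R3, 8.56 ± 0.12 in R2, and 8.98 ± 0.17 in R1. R3 minus R2 was 0.46 (95% interval 0.07 to 0.84, adjusted p = 0.164) and R2 minus R1 was -0.42 (-0.80 to -0.03, adjusted p = 0.42), so neither passed after adjustment. R3 minus R1 was 0.04 (-0.35 to 0.42, adjusted p = 0.931), an interval that leaves out a 2-fold change in either direction.

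*Irgm2* (58214977 to 58222783) and *Igtp* (58199556 to 58207592), also known as *Irgm3*, are regulators that lie side by side on chromosome 11 and share a probe set. It measured 7.83, 7.68, and 8.17 in R3, 8.58, 8.47, and 8.61 in R2, and 9.41, 9.35, and 9.12 in R1. The levels formed 3 steps, R3 below R2 below R1, with no overlap between neighbors. The shared probe set was 2.64-fold lower in R3 than in R1 (-1.40, SE 0.13, limma adjusted p = 0.000131) and lower in R3 than in R2 (-0.66, SE 0.13, adjusted p = 0.0127). The second call was lost without R3 replicate 1 (-0.63, adjusted p = 0.0511), R2 replicate 1 (0.0545), or R2 replicate 3 (0.0582). With R3 replicates 1 and 3 left out, the difference was -0.87 from R2 and -1.61 from R1. R2 minus R1 was -0.74 (95% interval -1.03 to -0.44), and its adjusted p of 0.0719 did not pass in this fit. *Iigp1*, an effector encoded on chromosome 18, stayed near the bottom of the scale. It measured 4.27, 4.05, and 4.07 in R3, 4.02, 4.01, and 4.08 in R2, and 4.43, 4.17, and 4.08 in R1, and the largest difference, R2 minus R1, was -0.19 (95% interval -0.42 to 0.04, adjusted p = 0.581).

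Of the 5 genes with a probe set of their own, 2 were called for R3 against R2, both lower in R3, where 9.55% of all 19937 genes were called and 4.69% were called lower. For R3 against R1 the same 2 genes, *Gbp3* and *Gbp7*, were called, both lower in R3, where 13.5% of all genes were called and 7.02% were called lower. For R2 against R1 none was called, where 0.391% of all genes were, and at an unadjusted p under 0.05 there was 1, *Irgm1*. With the methods' t-test and Benjamini-Hochberg adjustment the counts were 2, 2, and 0. The median difference over the 5 genes was 0.09 for R3 against R2, -0.10 for R3 against R1, and -0.19 for R2 against R1, against -0.01, -0.02, and -0.02 over all genes.

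**Figure D3:**
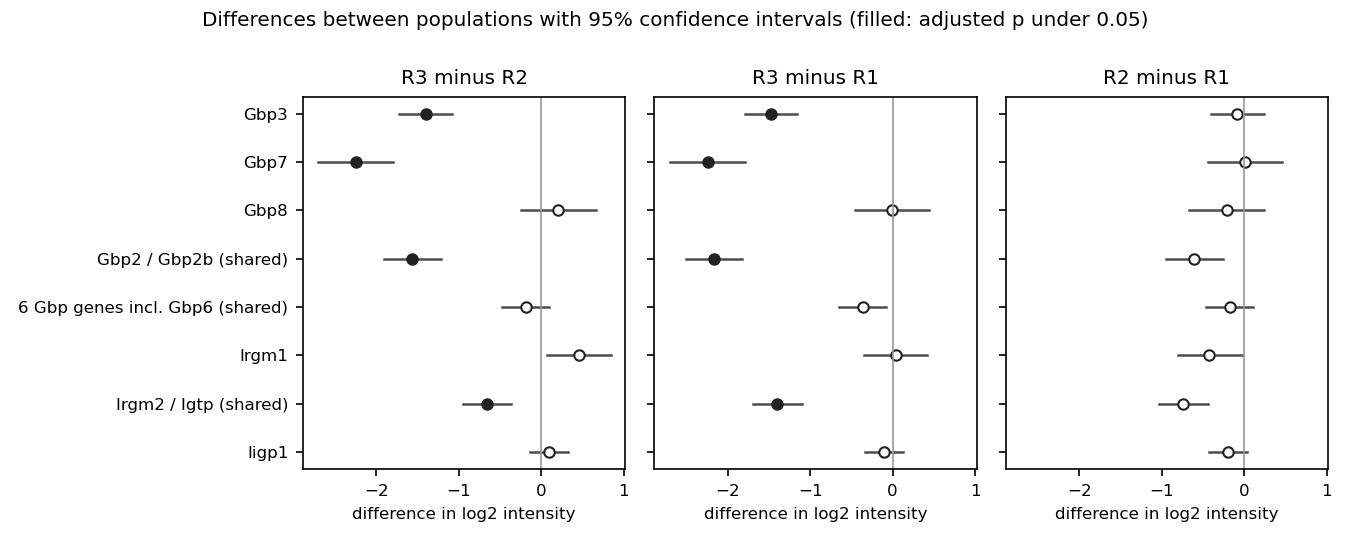
Difference in log2 intensity (x axis) with its 95% confidence interval for the 8 probe sets (rows) in R3 minus R2, R3 minus R1, and R2 minus R1, filled where the adjusted p is under 0.05. The lowest values are those of *Gbp7* (-2.25 and -2.24) and the shared *Gbp2* probe set (-1.56 and -2.17), and no point is filled for R2 minus R1.

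A further 12 interferon-inducible GTPases, or their relatives, had probe sets of their own. For R3 against R2, 2 were lower in R3 and none higher, and for R3 against R1, 4 were lower and none higher, and none was called for R2 against R1. Over all genes, 9.55% were called for R3 against R2 (4.69% lower) and 13.5% for R3 against R1 (7.02% lower). Against R2 the count was 1 without any 1 of R3 replicate 1, R3 replicate 2, or the R2 arrays, and 4 without R3 replicate 3, and against R1 it was 2 without R1 replicate 2. Their median differences were -0.13, -0.23, and -0.12. The gene with the largest difference was *Gm12250*, which encodes Irgb10, an effector that opens bacterial membranes. *Gm12250* measured 5.43, 6.32, and 6.42 in R3, 7.23, 7.18, and 7.62 in R2, and 7.83, 7.66, and 7.60 in R1. All R3 arrays were below all monocyte arrays, with differences of -1.29 from R2 (SE 0.24, adjusted p = 0.00852) and -1.64 from R1 (SE 0.24, adjusted p = 0.00168). *Gbp5*, which promotes NLRP3 inflammasome assembly, measured 5.04, 5.23, and 5.68 in R3, 5.92, 5.92, and 6.19 in R2, and 6.52, 6.21, and 6.40 in R1. R3 lay below R1 (-1.06, adjusted p = 0.00203) and below R2 (-0.69, adjusted p = 0.0257), and the second call was lost without R3 replicate 1 (-0.56, adjusted p = 0.0837) and without any of the 3 R2 arrays, among others. *Gbp9*, of the chromosome 5 cluster, was lower in R3 than in R1 (-1.39, SE 0.29, adjusted p = 0.0124), with date-by-date differences of -2.22, -1.73, and -0.22, and *Gbp4* was lower by 0.47 (adjusted p = 0.0159). The *Gbp4* probe set was dim, at 3.52 to 4.18 over the 9 arrays. The *Gbp9* call was lost without R1 replicate 2 (0.0519), and the *Gbp4* call without R3 replicate 1 (0.0622), R3 replicate 2 (0.0614), R1 replicate 2 (0.0583), or R1 replicate 3 (0.0552). The other 8 genes (*Gbp2b*, *Gbp11*, *Gm4951*, *Gm4841*, *Irgq*, *Irgc1*, *Mx1*, and *Mx2*) were called in no comparison, and their differences lay between -0.38 and 0.21.

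Some relatives were again on shared probe sets, and those given here were chosen after their values were seen. The probe set of *Ifi47*, an IRG effector also called Irgd, and the olfactory receptor gene *Olfr56* was lower in R3 than in R2 (-0.64, adjusted p = 0.0029) and than in R1 (-0.88, adjusted p = 0.000318). Of 2 probe sets shared by *Tgtp1* and *Tgtp2*, which encode the effector Irgb6, 1 was higher in R3 than in R2 (0.75, adjusted p = 0.0298) and the other was not called (0.46, adjusted p = 0.629). The call was lost without R3 replicate 1 (adjusted p = 0.0876). *Gvin1*, a very large interferon-inducible GTPase gene, was named on 3 shared probe sets, and none of them was called, with R3 minus R2 at 0.06, -0.25, and -0.11. Probe sets of such close copies may pick up each other's RNA, which was not tested.

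Interferon-gamma acts through a receptor of 2 chains and the kinases JAK1 and JAK2, and *Irf1* is among the first genes it switches on. In this list, 14 genes were measured. For R3 against R2, 2 were higher and 2 lower in R3, for R3 against R1, 3 were higher and 3 lower, and none was called for R2 against R1, where 9.55%, 13.5%, and 0.391% of all genes were called. Both receptor chains were lower in R3. *Ifngr1*, the ligand-binding chain, measured 9.94, 9.82, and 10.07 in R3, 10.67, 10.87, and 10.65 in R2, and 10.90, 11.17, and 10.99 in R1, with no overlap between R3 and the monocytes. Its differences were -0.79 from R2 (adjusted p = 0.00092) and -1.08 from R1 (adjusted p = 0.000106). *Ifngr2*, the signaling chain, was lower by 0.46 than in R2 (adjusted p = 0.00884) and by 0.61 than in R1 (adjusted p = 0.00132), and the difference from R2 did not pass when arrays were centered on their medians (adjusted p = 0.0539). *Jak2*, 1 of the receptor's 2 kinases, measured 10.71, 10.80, and 10.52 in R3, 9.28, 9.31, and 8.97 in R2, and 8.93, 9.27, and 8.98 in R1, and was higher in R3 than in R2 (1.49, adjusted p = 8.41e-05) and than in R1 (1.62, adjusted p = 3.68e-05).

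*Jak1* was lower in R3 than in R1 (-0.29, adjusted p = 0.0172), a call that was lost without R3 replicate 1 (0.0552), R3 replicate 2 (0.0636), or R1 replicate 2 (0.0597). *Irf8*, a transcription factor of both dendritic cells and monocytes, was higher in R3 than in R2 (0.72, adjusted p = 0.00139) and than in R1 (1.06, adjusted p = 0.000103). *Pias1*, an inhibitor of this signaling, was higher in R3 than in R1 by 0.25 (adjusted p = 0.0454). With the label date as a block its adjusted p was 0.0609, and it was lost without any 1 of 8 of the 9 arrays. *Irf1*, which binds the ISRE-type core, was -0.52 for R3 against R1 (adjusted p = 0.0582). It passed in 8 of 22 alternatives, among them with the block (0.0245) and without R3 replicate 1 (0.0229). In the others it did not pass, and the largest adjusted p was 0.321. *Ifng*, *Irf2*, *Irf9*, *Socs1*, *Ptpn2*, *Ptpn6*, and *Ptpn11* were called in no comparison, and the medians of the list were -0.01, -0.09, and -0.15 in the 3 comparisons.

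**Figure D4:**
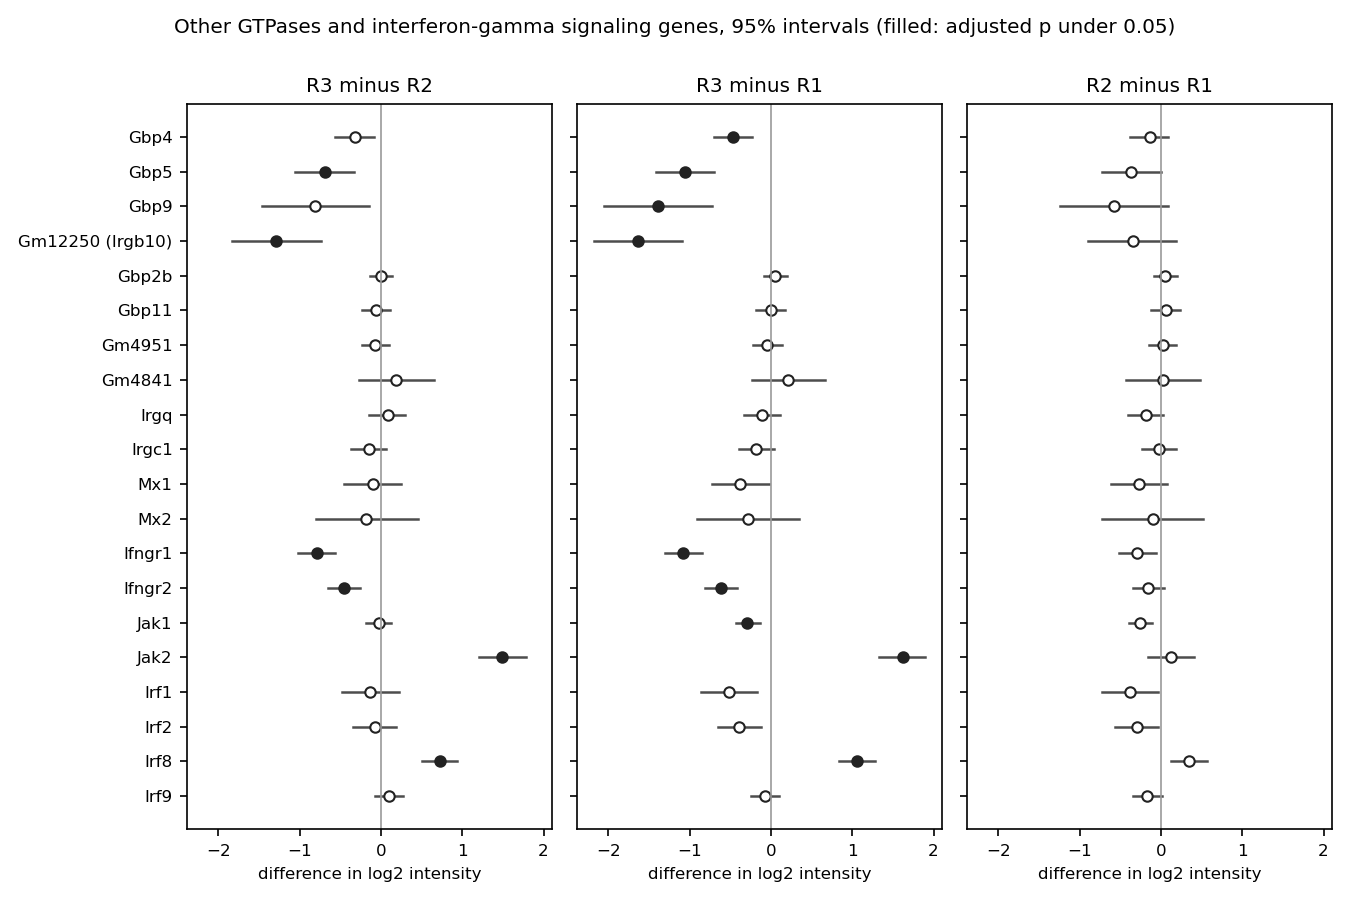
Difference in log2 intensity (x axis) with its 95% confidence interval for 12 other GTPases and 8 interferon-gamma signaling genes (rows) in the 3 comparisons, filled where the adjusted p is under 0.05. *Gm12250*, *Gbp5*, *Ifngr1*, and *Ifngr2* lie to the left for R3 against both monocyte populations, and *Jak2* and *Irf8* lie to the right.

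Targets of interferon other than GTPases were set beside them. Of 20 further interferon-gamma targets, R3 against R2 gave 3 higher and 2 lower, and R3 against R1 gave 2 higher and 5 lower, with medians of 0.04 and -0.06. Those are 5 and 7 of the 20 genes, where 9.55% and 13.5% of all genes were called. With R3 replicates 1 and 3 left out, fewer of the 20 were called, and fewer of all genes too. *Fcgr1*, the high-affinity IgG receptor (-2.08, adjusted p = 0.00473), and the chemokine *Cxcl10* (-2.06, adjusted p = 3.32e-05) were lower in R3 than in R1. The MHCII activator *Ciita* (1.56, adjusted p = 0.00193) and the peptide transporter *Tap1* (0.44, adjusted p = 0.00638) were higher, and *Tap1* was lost without R3 replicates 1 and 3 (adjusted p = 0.145). Targets of type I interferon were lower in larger numbers. Of 25 measured, R3 against R2 gave 2 higher and 16 lower (median -0.71), and R3 against R1 gave 1 higher and 20 lower (median -1.25), against 4.69% and 7.02% of all genes called lower. *Bst2*, which encodes tetherin and is named here after its value was seen, was the member higher in R3 in both comparisons (2.18 from R2, adjusted p = 1.5e-06, and 1.97 from R1, adjusted p = 9.91e-07). *Ifit3* (-2.57), *Rtp4* (-2.44), *Ifit1* (-2.39), and *Zbp1* (-2.28) differed most from R1. Without R3 replicate 1 the called genes of the type I list numbered 13 against R2 and 20 against R1, where 1476 and 2118 of all genes were called. With R3 replicates 1 and 3 left out, fewer of the list were called, and fewer of all genes too. *Ifit3* was then -2.77, *Rtp4* -3.16, *Ifit1* -2.68, and *Zbp1* -2.98 for R3 against R1. Between R2 and R1, 3 were called, all lower in R2, where 0.391% of all genes were called and 0.181% were called lower. They were *Ifit1* (-1.09, adjusted p = 0.0282), *Ddx58* (-0.94, adjusted p = 0.0236), and *Isg20* (-0.54, adjusted p = 0.0236). None of these passed with the label date as a block (0.0629, 0.0613, and 0.0594). All 3 were also lost without any 1 of R2 replicate 1, R3 replicate 1, R1 replicate 2, R2 replicate 2, or R2 replicate 3, and without R1 replicate 1 the list had 1 call.

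The machinery with which GBPs and IRGs work was examined last. GBPs feed inflammasomes with bacterial ligands, and of 11 inflammasome genes 6 were lower in R3 than in R2 and 8 lower in R3 than in R1. None was higher, and the medians were -0.52 and -0.75. Of all genes, 4.69% and 7.02% were called lower in R3. With R3 replicates 1 and 3 left out, fewer of the 11 were called, and fewer of all genes too. In that setting *Casp4* was -2.31, *Il18* -1.44, *Naip2* -1.54, and *Naip5* -1.33 for R3 against R1. *Casp4*, the mouse caspase-11 that senses lipopolysaccharide (-2.33, adjusted p = 4.9e-07), the cytokine *Il18* (-1.52, adjusted p = 0.00125), and the NLRC4 sensors *Naip2* (-1.46, adjusted p = 1.12e-05) and *Naip5* (-1.22, adjusted p = 0.000743) differed most between R3 and R1. *Casp4* was also lower in R2 than in R1 (-0.54, adjusted p = 0.0338), but not with the label date as a block (0.0677), and it stayed called without R3 replicate 2 or R1 replicate 3 and was lost without each other single array. IRGs and GBPs need the LC3 conjugation system of autophagy to reach vacuoles. Of 15 genes of that system and of vacuole targeting, 3 were lower in R3 than in R2 and 5 lower in R3 than in R1, with none higher, and the medians were -0.03 and -0.24. Over all genes 9.55% and 13.5% were called, 4.69% and 7.02% lower. The called autophagy genes included *Lgals8*, a galectin that marks broken vacuoles (-1.08 from R1, adjusted p = 0.00155), *Atg7*, which activates LC3 (-0.61, adjusted p = 0.0115), *Map1lc3b*, which encodes an LC3 (-0.48, adjusted p = 0.0128), and *Lgals3* (-0.45, adjusted p = 0.00304). The *Map1lc3b* call was lost when the probe sets of a gene were averaged (-0.55, limma adjusted p = 0.111). Against R2 the autophagy list had 0 calls without R3 replicate 1 or without any 1 R2 array and 1 without R3 replicate 2, and against R1 it had 5 without R3 replicate 1. With R3 replicates 1 and 3 left out, fewer of the autophagy list were called, and fewer of all genes too. *Atg7* (-0.51), *Map1lc3b* (-0.54), and *Lgals3* (-0.43) were then not called for R3 against R1. The last list held 6 genes for enzymes that add the lipid anchor of some GBPs or process the protein end that bears it. None was called for R3 against R1 or R2 against R1. *Fnta*, named after its value was seen, was -0.22 for R3 against R2 (adjusted p = 0.0399). That call was lost with the label date as a block and without any single array other than R1 replicate 1.

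The mean profile of the 5 GTPase genes over the 9 arrays, each centered on its own mean, averaged -0.45 over R3 arrays, 0.13 over R2, and 0.31 over R1. It was carried by *Gbp7* (-1.50, 0.75, and 0.74) and *Gbp3* (-0.96, 0.44, and 0.52) and describes no single gene, since *Gbp8* (0.06, -0.14, and 0.07), *Irgm1* (0.16, -0.29, and 0.13), and *Iigp1* (0.00, -0.10, and 0.10) did not follow it. The genes whose centered profile came nearest to it by root mean square difference were *Lyrm2* (0.058), *Ralb* (0.08), *Usp3* (0.081), *Aldh3b3* (0.086), *Asl* (0.087), *Rabggta* (0.087), *Lsm10* (0.089), *Tmem165* (0.09), *Dera* (0.096), and *Crat* (0.096). This is a description over arrays that share 3 populations, with no test.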

How the data were processed

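Log2 was taken of the deposited linear intensities, 1 per probe set and array (34760 probe sets, Affymetrix Mouse Gene 1.0 ST). Per the labels and the study's methods, the authors amplified 1 ng RNA per sample with the NuGEN Ovation Pico WTA v2 kit and analyzed the arrays with GenePattern. Background correction, summarization, and normalization are not given in the sources used here. Array medians ran from 58.0 to 64.7, and 3 arrays per population limit the precision. Gene names are those of the platform annotation (21640 name 1 gene, 1321 several, 11799 none). No pseudocount or filter was used. The fit was limma 3.58.1 (R 4.3.3), lmFit and eBayes, 6 residual degrees of freedom, tested on simulated data.

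The genes and lists were chosen with earlier results of these data known. Named are all 9 genes, every measured gene of the GTPase and signaling lists, at most 4 called genes of each other list, and the 10 nearest profiles. The label date pairs 1 array of each population. Deviations of same-date arrays correlated at -0.02 to 0.15 over genes, and the date was used as a block in an alternative. RefSeq promoters came from a table of GRCm38.p6.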

Additional observations from a re-analysis of the deposited data

How the results depend on the processing

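The counts of called GTPase genes with a probe set of their own (2 for R3 against R2, 2 for R3 against R1, and 0 for R2 against R1) were the same under each alternative run. They were the label date as a block, array median centering, quantile normalization, array weights, a filter on dim genes, the methods' t-test, a fit of 2 populations, the mean of a gene's probe sets, an intensity trend, testing several-gene probe sets too, and leaving out each array or each date. Over these 22 alternatives, *Gbp7* lay between -2.47 and -2.0 for R3 against R2 and between -2.45 and -2.02 for R3 against R1, and *Gbp3* between -1.48 and -1.28 and between -1.64 and -1.30, with largest adjusted p of 0.0287, 0.0474, 0.0203, and 0.0463. The replicate block changed no call of the 8 probe sets of the 9 genes, or of the shared probe sets of *Ifi47*, *Tgtp1*, and *Gvin1* (*Gbp3* adjusted p = 0.00125 and 0.000761, *Gbp7* 0.000257 and 0.000208, with the block), and the calls it changed elsewhere stand beside those genes. Without R3 replicates 1 and 3, an alternative chosen after the data were seen, the counts were also 2, 2, and 0, *Irgm1* was -0.29 for R3 against R1 (adjusted p = 0.385), and all genes called numbered 1036, 1555, and 1. *Jak1* (adjusted p = 0.0615), *Pias1* (0.17), and *Il18* (0.0524) were then not called for R3 against R1, nor was any list gene for R2 against R1, and *Fnta* was lost for R3 against R2.

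Values that changed sign were near 0 and called under no setting. For R3 against R1, *Gbp8* was 0.18 with array weights. For R2 against R1, *Gbp7* was -0.07 with median centering, -0.01 with quantile normalization, and -0.04 with array weights. For R3 against R2, *Jak1* was 0.02 with median centering. With arrays or dates left out, R3 against R1 ranged from -0.22 to 0.21 for *Gbp8*, -0.16 to 0.20 for *Irgm1*, and -0.17 to 0.01 for *Iigp1*, and R2 against R1 from -0.21 to 0.14 for *Gbp3*, -0.14 to 0.15 for *Gbp7*, -0.49 to 0.14 for *Gbp8*, and -0.33 to 0.05 for the 6-gene GBP probe set, while *Jak1* for R3 against R2 ranged from -0.08 to 0.02.

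The probe set of *Irgm2* and *Igtp* was also not called for R3 against R2 with the methods' t-test (adjusted p = 0.133) and without the first (0.174) or second (0.153) date, and was called for R2 against R1 with array weights (0.0248), with dim genes left out (0.0382), and without R3 replicate 3 (0.0416). The 6-gene GBP probe set was called for R3 against R1 with quantile normalization (0.0479). The methods' t-test called 0 of the 12 other GTPases, and *Gbp5* (0.0626 for R3 against R2), *Gbp9* (0.0613 for R3 against R1), and *Gbp4* (0.0597 for R3 against R1) were lost when only 2 populations were fitted. Over all genes, the t-test called 893, 658, and 1 in the 3 comparisons, against 1903, 2693, and 78. For R2 against R1 the count was 23 with the block, 20 with median centering, 343 with array weights, 46 with an intensity trend, and 0 to 124 with arrays or dates left out (0 without any 1 R2 array, 1 without R1 replicate 2, and 10 without R3 replicate 1), and median centering moved the share called lower from 46.2% to 65%.

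Called list members also moved, in the order R3 against R2 and R3 against R1. All genes called numbered 757 to 2467 and 658 to 2990. The other GTPases numbered 0 to 4 and 0 to 5, signaling genes 2 to 4 and 3 to 8, and interferon-gamma targets 1 to 6 and 1 to 8. Type I interferon targets numbered 5 to 18 and 10 to 21. Inflammasome genes numbered 2 to 8 and 3 to 8, and autophagy genes 0 to 4 and 0 to 7. *Gbp8*, *Iigp1*, and the 6-gene probe set were dimmer than the median gene, which limits them.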
